A study of Arabidopsis thaliana with 8 samples.

Results

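The genes described here are *CKX5* (*AT1G75450*) and *ARR8* (*AT2G41310*, annotated as *RR3*), set beside *CKX6* (*AT3G63440*). These 3 genes of the 37899 annotated nuclear genes of Arabidopsis were examined for PIF3-binding peaks whose summit, the position with the most overlapping reads, fell between 10 kb upstream of the transcription start site (TSS) and the end of the gene. *CKX5* and *ARR8* were taken because such peaks are in all 4 peak lists of the series, and *CKX6* because it has none, so the presence or absence of a peak is how the genes were chosen and not a result. For comparison, 2.02% of nuclear genes had such peaks in all 4 lists, and 62.5% had none in any. The windows hold 10 of the 6828 peaks in the lists, 5 at *CKX5*, 5 at *ARR8* and 0 at *CKX6*.

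PIF3 binding was measured by ChIP-seq in 8 libraries of 2-d-old dark-grown whole seedlings, 4 biological replicates of each of 2 genotypes. P3M seedlings are *pif3-3* null mutants that carry a 35S-driven PIF3 with MYC-epitope repeats, and WT seedlings lack the epitope and show what the MYC antibody brings down without it. The 35S promoter is active in most tissues, so the protein is not under the control of its own promoter, and whole seedlings give one value for all their cell types. All seeds had 3 h of white light at 21°C and a far-red pulse of 15 min before the dark period. Each list holds the peaks of the P3M library over the WT library of the same number. The fold, score and false discovery rate below are therefore already relative to WT. The tags are counts of the P3M library alone, and a WT peak list was not analysed here.

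Cytokinins are plant hormones that promote cell division and de-etiolation. CKX enzymes are cytokinin oxidases/dehydrogenases, which break the hormone down irreversibly. Cytokinin is perceived by histidine kinase receptors, and phosphotransfer proteins pass the signal to nuclear response regulators (ARRs). Type-B ARRs are transcription factors. Type-A ARRs, the family of ARR8, damp the response, and many of them are induced by cytokinin. PIF3 is a basic helix-loop-helix (bHLH) factor that accumulates in the dark, is degraded upon phytochrome activation and recognizes the G-box, CACGTG, and the PBE-box, CACATG. Both belong to the E-box class, CANNTG, that bHLH factors bind.

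The sequences under the leading peaks of *CKX5* and *ARR8* differed in their E-boxes. Each is printed as the mean summit of the 4 replicates with 100 bp on either side, on the plus strand of TAIR10.1 (RefSeq). These stretches hold the summits of all 4 lists, and the called peaks extend beyond them. Capitals mark the G-boxes at *CKX5*, which lies at chr1:28318910-28319110, and the PBE-box at *ARR8*, which lies at chr2:17220513-17220713 and reads as CATGTG on this strand.
CKX5 site: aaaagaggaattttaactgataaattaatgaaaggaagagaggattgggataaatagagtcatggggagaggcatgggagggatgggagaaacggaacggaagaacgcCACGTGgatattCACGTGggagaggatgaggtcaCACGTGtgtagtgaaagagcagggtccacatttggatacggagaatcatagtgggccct
ARR8 site: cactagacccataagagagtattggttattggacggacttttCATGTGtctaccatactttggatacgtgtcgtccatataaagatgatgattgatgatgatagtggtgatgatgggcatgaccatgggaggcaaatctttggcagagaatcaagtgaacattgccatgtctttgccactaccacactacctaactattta

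The *CKX5* stretch holds 3 G-boxes and 0 PBE-boxes, the G-boxes with centres 10.75, 22.75 and 44.75 bp from the mean summit on the side away from the gene. The *ARR8* stretch holds 0 G-boxes and 1 PBE-box, 55.5 bp from the mean summit on the side away from the gene. Among the 1064 reproducible sites of the series (summits of at least 2 lists, each less than 100 bp from the next), 39 (3.67%, exact 95% interval 2.62 to 4.98%) had at least 3 G-boxes, against 0.0152% of 592765 consecutive genome windows of that length. The *ARR8* content was commoner: 237 sites (22.3%, 19.8 to 24.9%) held a PBE-box and no G-box, against 8.94% of the windows. The intervals cover counting error only.

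*CKX5* lies on the minus strand of chromosome 1, from 28314458 to 28318375 (TAIR10.1), and its leading site was 635 bp upstream of the TSS in intergenic DNA. The other annotated *CKX5* transcript starts 648 bp from the site. The gene on the other side of this 9322-bp intergenic stretch, *AT1G75460*, is transcribed in the opposite direction and starts 8688 bp from the site. *ARR8* lies on the plus strand of chromosome 2, from 17221840 to 17224880, and its leading site was 1227 bp upstream of the TSS, also intergenic. On its other side are the non-coding gene *AT2G09245* and then *SSL1* (*AT2G41300*), whose divergent TSS was 4321 bp away.

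**Figure D1:**
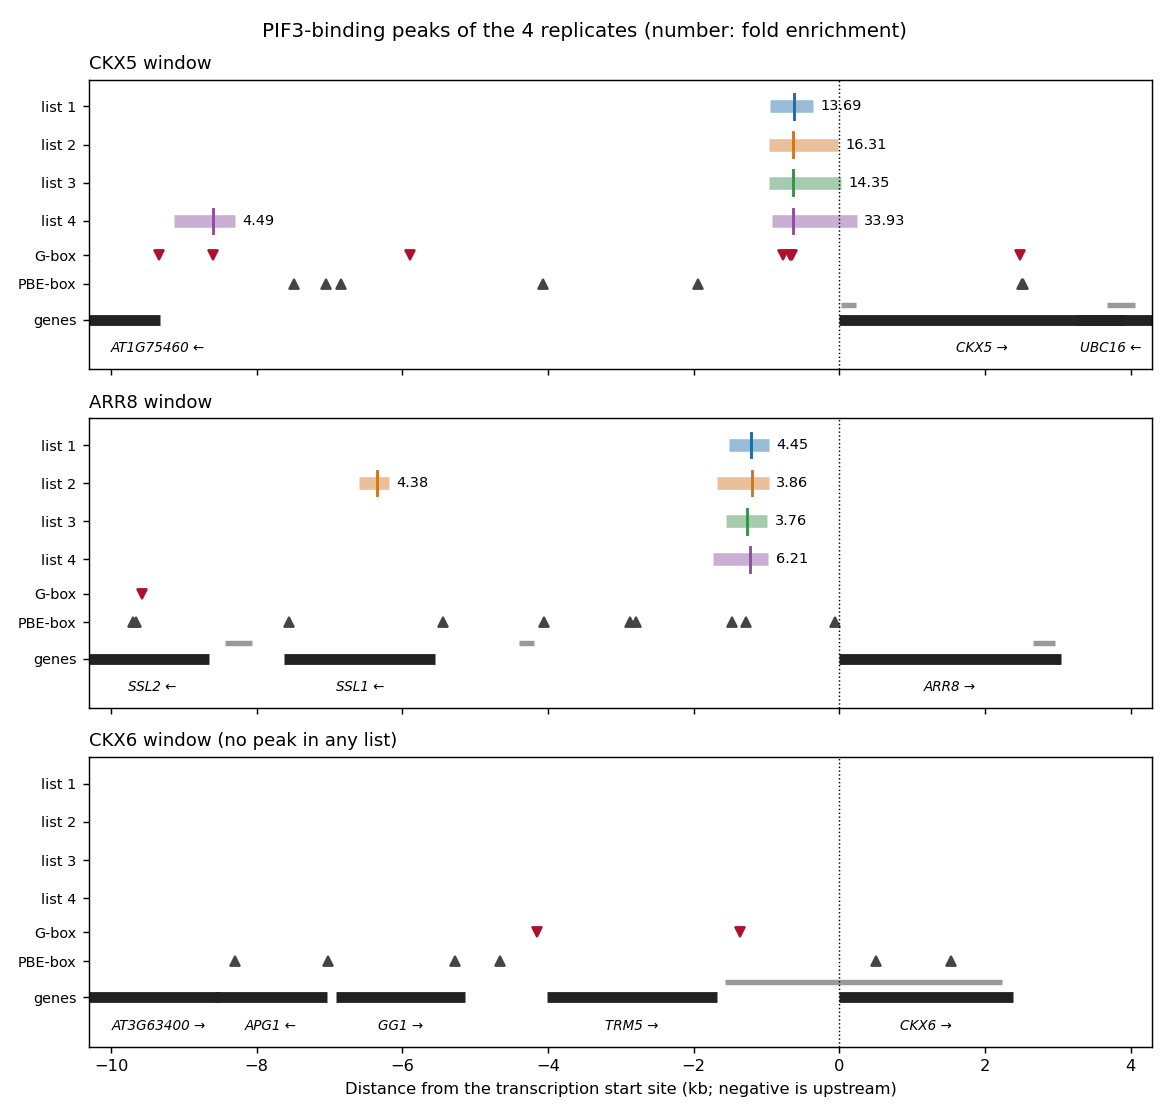
Peaks of the 4 lists in the windows of CKX5, ARR8 and CKX6 against distance from the TSS in kb, drawn so that each gene reads to the right. Bars are peak extents, vertical ticks are summits, numbers are fold enrichments, triangles are G-boxes and PBE-boxes, black boxes are protein-coding genes and thin grey boxes are non-coding genes. The 4 leading peaks of each gene lie above one another, 635 bp upstream of CKX5 and 1227 bp upstream of ARR8, and the CKX6 window holds 0 peaks.

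The *CKX5* site stood near the top of every list. Its fold enrichment, which MACS gives as summit tags relative to the background around them, was 13.69, 16.31, 14.35 and 33.93 in replicates 1 to 4 (mean 19.6 ± 9.64, SD, n = 4). These values ranked 9 of 696, 7 of 2517, 5 of 526 and 2 of 3089 peaks. Replicate 4 was the highest and the other replicates were close to one another. Without it the mean fold was 14.8.

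The lists differ in scale, so the fold was also set against the median peak of each list, 4.805, 4.01, 4.315 and 4.73 in replicates 1 to 4. The *CKX5* fold was 2.85, 4.07, 3.33 and 7.17 times that median (mean 4.35 ± 1.95, SD, n = 4). Replicate 4 gave the highest fold at 150 of the 175 sites found in all 4 lists, *CKX5* and *ARR8* among them. The ratio of the replicate 4 fold to the mean of the others was 2.30 at *CKX5* and 1.54 at *ARR8*, against a median of 1.63 over these sites.

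*ARR8* was chosen, like *CKX5*, for peaks in all 4 lists, but its site had an ordinary fold. Its fold was 4.45, 3.86, 3.76 and 6.21 in replicates 1 to 4 (mean 4.57 ± 1.13, SD, n = 4), at rank 397 of 696, 1402 of 2517, 368 of 526 and 718 of 3089. It was 0.926, 0.963, 0.871 and 1.31 times the list median (mean 1.02 ± 0.200, SD, n = 4). The fold was below the median in 3 lists and above it in replicate 4.

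The *CKX5* fold was 3.08, 4.23, 3.82 and 5.46 times that of *ARR8* in replicates 1 to 4. No test was run on this difference, since both sites were chosen from the peaks themselves. Among the 175 sites found in all 4 lists, *CKX5* ranked 9, 7, 5 and 2 by fold in replicates 1 to 4, and *ARR8* ranked 154, 165, 163 and 159. The medians of these sites were 6.55, 7.05, 5.55 and 10.7, all below the *CKX5* fold and above the *ARR8* fold.

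**Figure D2:**
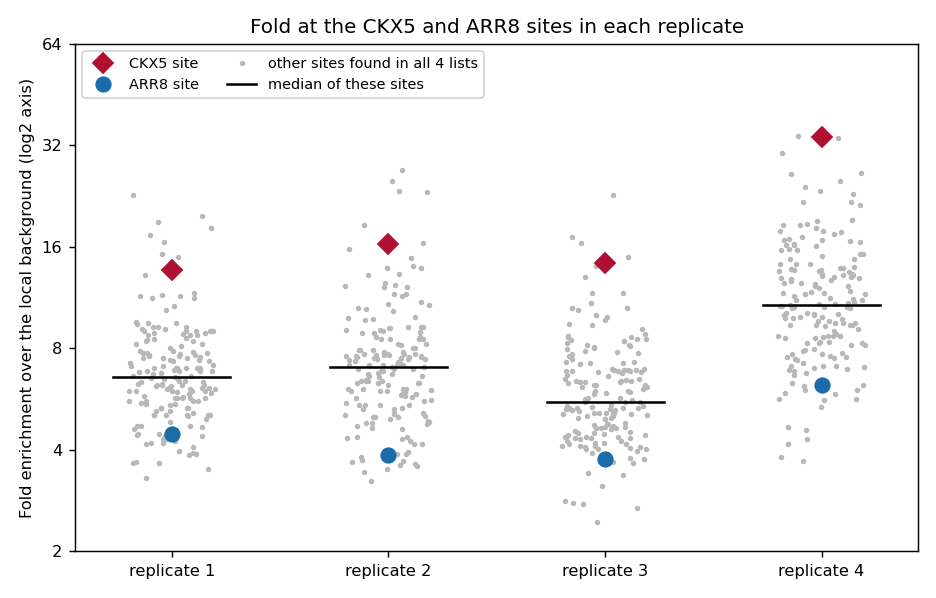
Fold enrichment (log2 axis) of the CKX5 and ARR8 sites in each replicate, with the other sites found in all 4 lists as grey points and the median of all 175 as a line. The CKX5 site sits at 13.69 to 33.93, near the top of each column, and the ARR8 site at 3.76 to 6.21, below each median.

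The sites were also set beside sites of like E-box content. In each list *CKX5* had the highest fold of all peaks at sites with 3 or more G-boxes, of which 31, 34, 21 and 38 were in the lists of replicates 1 to 4, with medians of 6.04, 5.605, 4.77 and 6.945. Among sites with a PBE-box and no G-box, *ARR8* ranked 82 of 112, 145 of 168, 83 of 112 and 103 of 217, where the medians were 5.32, 5.12, 4.44 and 6.1. Its fold was below the median in replicates 1 to 3 and above it in replicate 4. Of the 39 such sites found in all 4 lists, it ranked 37, 38, 36 and 35. These sites share libraries and differ in other sequence, so the ranks are a description.

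The tags, the reads of the P3M library in the whole peak region, separated the genes less than the fold did. *CKX5* peaks held 165, 315, 467 and 877 tags in replicates 1 to 4, and *ARR8* peaks held 96, 212, 214 and 479. The smallest of these counts, 96, has an exact Poisson 95% interval of 77.8 to 117, and the largest, 877, one of 820 to 937. *CKX5* was higher in 4 of 4 lists, by 1.72, 1.49, 2.18 and 1.83 times.

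The peaks also differed in length, which was 596, 952, 994 and 1175 bp at *CKX5* and 544, 720, 571 and 766 bp at *ARR8* in replicates 1 to 4. Per 100 bp, *CKX5* peaks had 27.7, 33.1, 47.0 and 74.6 tags and *ARR8* peaks 17.6, 29.4, 37.5 and 62.5, a ratio of 1.57, 1.12, 1.25 and 1.19. By tags, *ARR8* ranked 271 of 696, 234 of 2517, 130 of 526 and 215 of 3089, well above its rank by fold in every list. *CKX5* ranked 54, 54, 15 and 29 by tags, below its rank by fold. The local background that the fold divides by was not analysed here.

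The MACS score, minus 10 times the log10 of the p-value, was 406.37, 753.58, 1075.77 and 3100 at *CKX5* in replicates 1 to 4. The last value is the highest in its list and is shared by 6 peaks. At *ARR8* the score was 64.28, 96.32, 86.97 and 438.92, and replicate 4 stood apart from the other replicates. A p of 1e-10, which is a score of 100, was reached in 4 lists at *CKX5* and in 1 list at *ARR8*.

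The false discovery rate of the caller did not follow the score from list to list. Within each list, the rate did not rise with the score at the peaks described here. It was 7.14%, 0%, 100% and 0% at *CKX5* in replicates 1 to 4, and 100%, 48.74%, 100% and 12.55% at *ARR8*. In the lists of replicates 1, 3 and 4, a rate of 100% was given to 673, 525 and 2164 peaks, among them the *CKX5* peak of replicate 3 with rank 5 by fold and rank 6 by score of 526. Under a limit of 5%, 2 lists were left at *CKX5* and 0 at *ARR8*. That limit kept 10 of 696, 115 of 2517, 1 of 526 and 177 of 3089 peaks in replicates 1 to 4, so most peaks were lost.

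The *CKX5* summits fell closer together than those of *ARR8*. They were at 28319002, 28319016, 28319008 and 28319013 in replicates 1 to 4, a range of 14 bp, and the median range over sites in all 4 lists was 27 bp. At *ARR8* they were at 17220629, 17220639, 17220569 and 17220615, a range of 70 bp, with replicate 3 apart from the rest. Of the 175 sites, 30 had a smaller range than *CKX5* and 160 a smaller range than *ARR8*.

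All 4 *CKX5* summits lay just beside the first of the G-boxes printed above, on the side of the gene. The nearest G-box centre was 18.5, 4.5, 12.5 and 7.5 bp from the summit in replicates 1 to 4. At *ARR8* the PBE-box was 71.5, 81.5, 11.5 and 57.5 bp from the summit, near it in replicate 3 only. All 4 summits fell between the PBE-box and another E-box, CAAGTG, which was 37.5, 27.5, 97.5 and 51.5 bp from them in replicates 1 to 4. On both strands, CAAGTG was in 12.3% of all sites and 9.18% of genome windows.

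The *ARR8* stretch also holds TACGTG, which shares its last 5 bases with the G-box, 33.5 bp from the mean summit and 10.5 bp from the summit of replicate 3. This word was in 150 of 1064 sites (14.1%) and in 3.54% of genome windows, and it was looked up after the sequence had been read. The *CKX5* stretch holds one further E-box, CAAATG on the minus strand, 72.75 bp from the mean summit. It was in 15.4% of sites and 16.0% of windows. A match says nothing of whether the protein sits there.

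**Figure D3:**
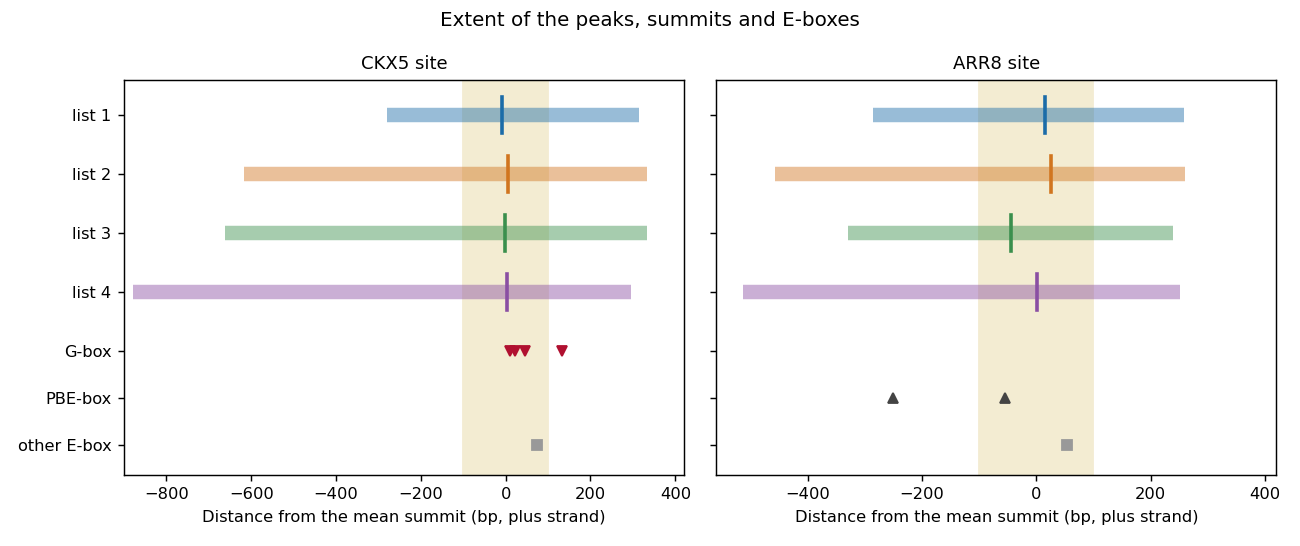
Peak extents (bars), summits (ticks) and E-boxes (symbols) at the CKX5 and ARR8 sites against distance from the mean summit in bp on the plus strand, with the site (100 bp to either side of the mean summit) shaded. CKX5 reads to the left and ARR8 to the right. The CKX5 summits span 14 bp beside the first G-box, and the ARR8 summits span 70 bp between the PBE-box and the other E-box.

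The *CKX5* peaks of replicates 2 to 4 reached further toward the gene than away from it, and that of replicate 1 did not. They reached 323, 328, 334 and 292 bp beyond the summit on the side away from the gene, but 272, 623, 659 and 882 bp toward the gene in replicates 1 to 4. Replicates 3 and 4 therefore covered the annotated TSS, and replicates 1 and 2 ended short of it. The side toward the gene held no G-box and no PBE-box, while one further G-box lay on the other side, 131.75 bp from the mean summit and inside all 4 peaks. The *ARR8* peaks reached 301, 484, 286 and 515 bp upstream of the summit and 242, 235, 284 and 250 bp toward the gene in replicates 1 to 4, about equal in replicate 3. A further PBE-box lay 250.5 bp from the mean summit on the upstream side, likewise inside all 4 peaks.

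The study designed a primer pair for ChIP-qPCR at *CKX5*, printed here to show which of these boxes its product covers. Capitals mark a G-box.
CKX5-QF2: tgtagtgaaagagcagggtc
CKX5-QR1: cCACGTGaactcacttcttc
Each primer matched the genome once. The product of 88 bp, chr1:28319058-28319145, begins 48.25 bp from the mean summit, shares 53 bp with the printed stretch and contains only the outer G-box, which is part of the reverse primer. The 3 G-boxes nearest the summits are outside it. Precipitated fragments longer than the product can span these boxes too, so the product does not tell the boxes apart. The ChIP-qPCR values were not analysed here.

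Each bound gene had 1 more peak, present in 1 list only. At *CKX5* it was in replicate 4, 8605 bp upstream of the TSS, with a fold of 4.49 at rank 1761 of 3089, 232 tags and a score of 111.04. Its summit was 11.5 bp from a G-box but lay 718 bp upstream of *AT1G75460*, far nearer to that gene than to *CKX5*. At *ARR8* it was in replicate 2, 6343 bp upstream and 795 bp inside *SSL1*, with a fold of 4.38, 85 tags and a score of 51.85, and the nearest PBE-box was 898.5 bp away. Neither peak recurred in another replicate.

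Just outside the windows, the nearest peaks were also of 1 list each. At *CKX5* they were 12732 bp upstream of the TSS (replicate 2, fold 3.52) and 1077 bp past the end of the gene (replicate 2, fold 4.45). At *ARR8* they were 32655 bp upstream (replicate 2, fold 3.5) and 4096 bp past the gene end (replicate 2, fold 3.54).

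All 3 windows held G-boxes outside any site. The *CKX5* window of 13918 bp held 8 G-boxes, of which 3 were in the leading site, and 7 PBE-boxes, none of them in a site. The *ARR8* window of 13041 bp held 1 G-box, outside its site, and 10 PBE-boxes, 1 of them in the site. *CKX6* held 2 G-boxes and 6 PBE-boxes and 0 peaks, and one of its G-boxes lay 1357.5 bp upstream of the TSS, about as far out as the *ARR8* site.

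*CKX6*, on the plus strand of chromosome 3 from 23424157 to 23426536, had the nearest peak 25503 bp upstream, in replicate 2 with a fold of 3.38. The next was 35787 bp upstream in replicate 1 with a fold of 3.09, and neither recurred. Between the TSS and the chromosome end, 35673 bp, there was no peak in any list. A gene with 0 peaks is the usual case, seen for 58.3% of protein-coding genes. An absent peak means that none passed the p of 1e-05 of the caller, not that binding is absent.

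Over all nuclear genes, 1.69% had a site at which all 4 lists met, as *CKX5* and *ARR8* do. At least 1 list had a peak for 37.5% of genes, at least 2 lists for 13.7% and at least 3 lists for 5.27%. A reproducible site was in the window of 9.59% of all genes and of 10.7% of protein-coding genes. Nothing is read from these shares for *CKX5* and *ARR8*, which were chosen by this measure.

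The other cytokinin genes were counted over a list of 61 protein-coding genes ordered by role. A reproducible site was in the window of 9 of them (14.8%), beside 10.7% of protein-coding genes. Any peak was found for 27 genes (44.3%, beside 41.7% of protein-coding genes), peaks in at least 2 lists for 10 (16.4%, beside 15.5%) and in at least 3 lists for 5 (beside 5.94%). *CKX5*, *ARR8* and *ARR1* had peaks in all 4 lists (4.92%, beside 2.27%), and at *CKX5* and *ARR8* all 4 lists met at one site (beside 1.89% of protein-coding genes). *CKX5* and *ARR8* were on the list by choice and count toward each of these shares. No peak was found for 34 genes (55.7%).

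Among the 7 cytokinin oxidase genes, *CKX5* was the one with a reproducible site. *CKX2*, *CKX3*, *CKX4* and *CKX7* each had 1 peak in 1 list, with folds of 3.43, 3.8, 5.01 and 2.72, and *CKX1* had 0 peaks, as did *CKX6*. In the only lists that allow the comparison, replicates 1 and 2, the *CKX5* fold of 13.69 and 16.31 stood above these values, which were 3.8 in replicate 1 and 5.01 or less in replicate 2. *CKX1* had 0 peaks with 3 G-boxes and 8 PBE-boxes in its window.

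Among the 10 type-A response regulators, *ARR8* was the one with a reproducible site. *ARR4* had 3 peaks, all in the list of replicate 2, the highest with a fold of 4.16. *ARR6*, *ARR16* and *ARR17* had a peak in 1 list each, with folds of 2.75, 3.87 and 3.28. In replicate 2, the *ARR8* site had a fold of 3.86, below *ARR4* and *ARR16* and above *ARR6*. In replicate 4 it had 6.21 at rank 718 of 3089, and *ARR17* had 3.28 at rank 2797.

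By role, counts this small are not read against the 10.7% of protein-coding genes with a site. None of the 11 synthesis genes, among them the isopentenyltransferase (*IPT*) genes, had a reproducible site, nor did any of the 3 receptors or 6 phosphotransfer proteins. *LOG8*, of the *LOG* family that releases the active hormone, had a site 7362 bp upstream with folds of 4.06 and 3.97 in replicates 1 and 2, and *AT5G11940* lies between.

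Of the 11 type-B response regulators, *ARR1* and *ARR18* had a site. The *ARR1* site was 8194 bp upstream, beyond *AT3G16850*, with folds of 5.54, 4.2 and 7.32 in replicates 2, 3 and 4 and 1 PBE-box. A peak of replicate 4 with a fold of 10.08 lay closer, 2827 bp upstream, but was in that list only. The *ARR18* site, 3184 bp upstream, was inside the neighbouring genes *AT5G58090* and *AT5G58100*, with folds of 3.69 and 4.89 in replicates 1 and 2.

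Of the 6 cytokinin response factors (*CRF*) on the list, which are AP2/ERF transcription factors, 4 had a site, beside 10.7% of protein-coding genes. At *CRF2*, *CRF4* and *CRF5* it rested on 2 lists, and with at least 3 replicates required 4 cytokinin genes in all had a site. The nearest was at *CRF4*, 469 bp upstream with 1 G-box and folds of 4.69 and 5.86 in replicates 1 and 4. At *CRF2* the site was 892 bp upstream with no G-box or PBE-box and folds of 4.02 and 3.05 in replicates 2 and 4. The *CRF5* site, 3534 bp upstream, and the *CRF3* site, 9280 bp upstream, held 1 G-box each. *CRF3* had folds of 3.94, 4.88 and 5.26 in replicates 2, 3 and 4, and *CRF5*, whose site is inside *AT2G46290* with 2 genes between, had 4.4 and 3.54 in replicates 2 and 4. All these folds were below those of *CKX5* in the same lists.

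The lists of replicates 2 and 4 are longer than the others, and 5 of the 9 cytokinin genes had a site without replicate 2. Of the 17 cytokinin genes with peaks in 1 list only, 11 had them in the list of replicate 2, 5 in that of replicate 4, 1 in that of replicate 1 and 0 in that of replicate 3. The folds of these 21 peaks ran between 2.72 and 5.42, with a median of 3.86.

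**Figure D4:**
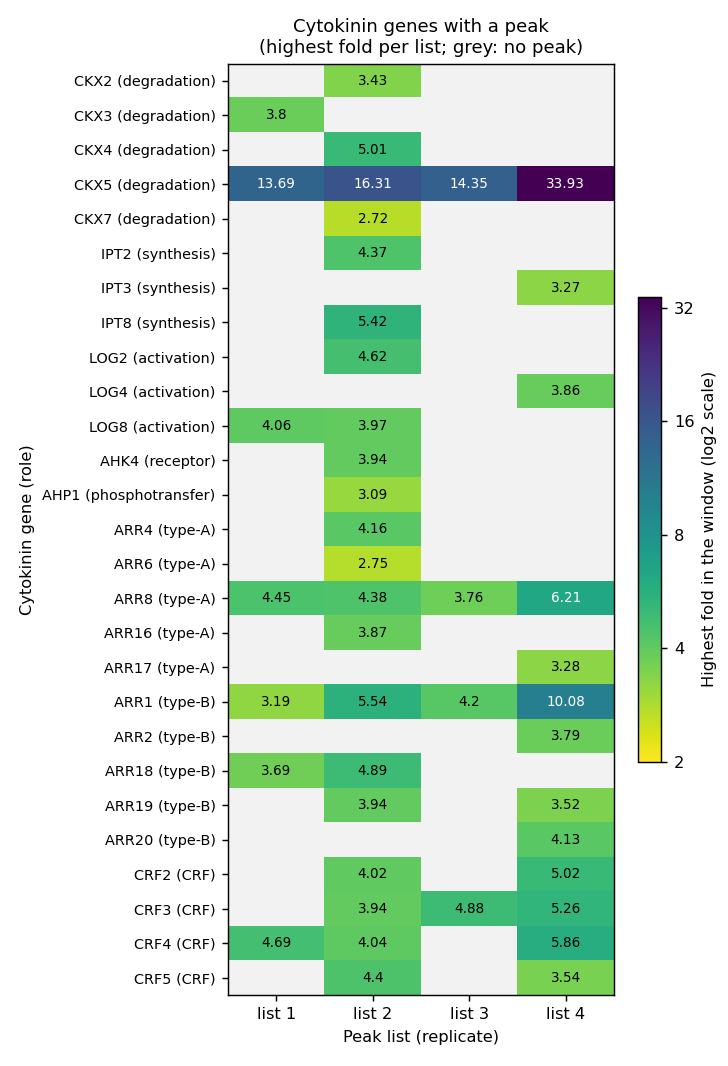
Highest fold of any peak in the window for each cytokinin gene with a peak (rows, with the role of the gene) in each of the 4 lists (columns), where colour is the fold on a log2 scale and grey means no peak in that list. CKX5 is the dark row at 13.69 to 33.93, ARR8 and ARR1 are the other rows filled in all 4 columns, and most rows have 1 filled cell.

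The sites most like that of *CKX5* were found by the distance between their fold percentiles in the 4 lists, over 1063 other sites. They were the sites next to *AT5G02580*, with folds of 16.48, 23.19, 14.88 and 22.99 in replicates 1 to 4, *HB4* (*AT2G44910*), a homeodomain-leucine zipper gene, with 14.87, 16.43, 10.88 and 25.12, and *BBX28* (*AT4G27310*), a B-box zinc finger gene, with 19, 25.04, 12.98 and 21.34. They lay 0.551, 0.976 and 1.03 percentile points from *CKX5*. The first 2 hold 2 G-boxes and the other 1, against 3 at *CKX5*.

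*CKX5* lies near the upper end of the percentile scale, where distances are small, so its distances are not compared with those of *ARR8*. For *ARR8* the nearest sites were at 17.9, 21.9 and 23.5 percentile points. They were next to *AT4G06744*, with folds of 4.44, 4.16, 4.05 and 7.22 in replicates 1 to 4, *RPK1* (*AT1G69270*), a receptor-like kinase gene, with 5.07, 4.36, 3.74 and 6.2, and *ATL4* (*AT3G60220*), a RING finger gene, with 4.31, 3.73, 4.37 and 6.19. Their E-boxes differed: the *AT4G06744* site had no G-box or PBE-box, that of *RPK1* 1 PBE-box, and that of *ATL4* 1 of each. Over all 1064 sites, 35.3% held a PBE-box.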

How the data were processed

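ChIP DNA of P3M and WT seedlings was sequenced in 8 libraries. Per the submitters' processing notes, the authors used CASAVA 1.7.0, Bowtie 0.12.7 and MACS 1.4.0rc2 with TAIR9, at a p-value cutoff of 1e-05, with 4 immunoprecipitates pooled per library. The authors deposited, for each peak, a count of P3M tags, a fold enrichment (a ratio to the local background), a score (minus 10 times log10 of its p-value) and, in percent, an FDR. All are used as deposited and were not rescaled. Library depth and coverage were not used here.

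The summit position is the start plus the listed offset. Summits less than 100 bp apart were joined, and at least 2 replicates made a site, 100 bp to either side of the mean summit. Genes and sequences came from RefSeq TAIR10.1. On it, 1992 of 1995 peaks with a listed G-box distance matched that distance to within 3 bp. Motifs were searched on both strands. Peaks were read in all 4 lists, and 0 value columns were left unassigned. Calculations used Python 3.11.15, numpy 2.4.6, pandas 2.3.3, scipy 1.17.1 and matplotlib 3.10.9, and were checked on simulated data.

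The genes, the 61-gene list and the rules were chosen with earlier results of these data known. Named genes are these 3, the cytokinin genes by role and the 3 sites with the most alike fold percentiles. The E-boxes other than the G-box and PBE-box, the further word at *ARR8*, and the single-list peaks and primers were described after their values or sequences were seen. Because the genes were chosen by the peaks, no test was run except Dixon's limit for outliers, which only flagged values for a closer look. Errors are SDs over 4 replicates, and intervals cover counting error only. Alternatives changed the p cutoff, false discovery rate, joining distance, replicate number, window and ranking measure, or left out a replicate.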

Additional observations from a re-analysis of the deposited data

Results flagged for a closer look

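The fold at the *CKX5* site in replicate 4, 33.93, stood apart from the other replicates: its gap to the next value was 0.871 of the whole range, above Dixon's limit for 4 values. Relative to the median of its list, 7.17 times, it did not pass that limit (ratio 0.718). The score at the *ARR8* site in replicate 4, 438.92, stood apart in the same way, with a ratio of 0.914. Replicate 4 also had the highest fold at 150 of the 175 sites found in all 4 lists (85.7%). Of the 12 sets of 4 values examined, 2 passed. The sets share the same libraries and some rescale the same fold, so this count cannot be set against a chance rate.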

How the results depend on the processing

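At peaks of p 1e-10 or lower, *ARR8* kept a peak in 1 list and 0 sites, 1448 genes had a site against 3635 before, and 1 cytokinin gene did against 9. Below a false discovery rate of 5%, peaks remained in 2 lists at *CKX5* and 0 at *ARR8*, and most peaks of every list were lost. With at least 3 replicates required, 1575 genes and 4 cytokinin genes had a site, and with 5 kb upstream 2130 genes did. Ranked by tags in place of fold, the mean percentile was 96.6 at *CKX5* (99.5 by fold) and 79.9 at *ARR8* (48.4 by fold), and the cause was not tested. The other changes follow from fewer peaks, fewer sites kept or shorter windows. Leaving out each replicate in turn gave 1826 to 3233 genes and 5 to 9 cytokinin genes with a site, with 1826 genes without replicate 4 and 2290 genes and 5 cytokinin genes without replicate 2. The *CKX5* mean fold was then 14.8 to 21.5 and that of *ARR8* 4.02 to 4.84. Of all 104 comparisons with an alternative, 90 stayed within their limits and 14 moved. Many of the 90 could not move, so this tally does not measure robustness. *CKX6* started from 0 peaks, and leaving out a replicate had to give 3 lists at *CKX5* and *ARR8*, which was counted as unmoved. No paired analysis was possible because each list already sets a P3M library against the WT library of its number. Apart from Dixon's limit, no test was run.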
